A study of Mus musculus with 8 samples.

Results

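The high mobility group (HMG) genes are the 8 genes Hmgb1, Hmgb2, Hmgb3, Hmga1, Hmga2, Hmgn1, Hmgn2 and Hmgn3, followed here across RNA-seq libraries of mouse bone marrow cells. They were chosen by their symbols among 29955 gene names, and the family was selected on earlier results of these same libraries, so that every value of the 8 genes below is a description and carries no test. All 8 symbols had a row in each of the 8 libraries. The study asked how Ripk3, a kinase of the necroptosis pathway, acts in blood stem and progenitor cells. WT and germline Ripk3-KO mice of the strain written CD57BL6/J in the labels gave LSK and LK cells. LSK cells are Lin- Sca1+ Kit+ and hold the stem and multipotent progenitor cells. LK cells, defined in the study as Lin- Sca1- Kit+, hold the myeloid progenitors. There were 2 libraries in each of the 4 groups (WT LSK, Ripk3-KO LSK, WT LK and Ripk3-KO LK). The study's methods describe repeated X-irradiation of all mice and collection after the last dose, whereas the labels say that no treatment was given. Ages are not given in the sources used here, and nothing says whether replicates came from separate mice, so p-values measure only the spread between these libraries.

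HMG proteins are abundant small proteins of chromatin that bind DNA or nucleosomes with little sequence preference. HMGB proteins carry HMG boxes that bend DNA, HMGA proteins carry AT-hooks that bind the minor groove, and HMGN proteins bind the nucleosome core and compete with linker histone H1. Hmgb1 is also an alarmin. Cells that die by necrosis or necroptosis release it, and it then acts on receptors such as the receptor for advanced glycation end products (Ager) and Toll-like receptors. Hmga2 is known in blood stem cells as a target of the Lin28b and let-7 axis.

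The 8 genes lie on 8 chromosomes of GRCm38 in GENCODE M21, and all are annotated as protein coding. The HMGB genes are Hmgb1 (ENSMUSG00000066551.12) at chr5:149046702-149184489 on the minus strand, Hmgb2 (ENSMUSG00000054717.7) at chr8:57511907-57515999 on the plus strand and Hmgb3 (ENSMUSG00000015217.11) at chrX:71555918-71560676 on the plus strand. The HMGA genes are Hmga1 (ENSMUSG00000046711.16) at chr17:27556497-27563674 on the plus strand and Hmga2 (ENSMUSG00000056758.14) at chr10:120361275-120476469 on the minus strand. The HMGN genes are Hmgn1 (ENSMUSG00000040681.16) at chr16:96120618-96127729, Hmgn2 (ENSMUSG00000003038.15) at chr4:133964738-133968650 and Hmgn3 (ENSMUSG00000066456.14) at chr9:83109948-83146685, all on the minus strand. Per the submitters' processing notes the reads were placed on mm9, so these positions describe the genes and not the authors' alignment.

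Promoter windows are shown for the 5 HMG genes of high signal that were lower together in Ripk3-KO LSK cells. Each is the 250 bases before the RefSeq start of transcription on GRCm38.p6, 5′ to 3′ along the gene, at chr5:149053058-149053307 on the minus strand (Hmgb1), chr8:57511593-57511842 on the plus strand (Hmgb2), chrX:71555667-71555916 on the plus strand (Hmgb3), chr16:96127726-96127975 on the minus strand (Hmgn1) and chr4:133967992-133968241 on the minus strand (Hmgn2). Capitals mark CCAAT and the GC box GGGCGG, searched on both strands, so that CCGCCC is a GC box on the other strand.
Hmgb1: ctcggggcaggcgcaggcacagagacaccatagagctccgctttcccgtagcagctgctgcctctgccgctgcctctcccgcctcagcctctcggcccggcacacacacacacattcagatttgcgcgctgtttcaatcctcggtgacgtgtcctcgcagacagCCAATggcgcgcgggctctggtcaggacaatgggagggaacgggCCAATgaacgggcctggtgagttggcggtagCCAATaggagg
Hmgb2: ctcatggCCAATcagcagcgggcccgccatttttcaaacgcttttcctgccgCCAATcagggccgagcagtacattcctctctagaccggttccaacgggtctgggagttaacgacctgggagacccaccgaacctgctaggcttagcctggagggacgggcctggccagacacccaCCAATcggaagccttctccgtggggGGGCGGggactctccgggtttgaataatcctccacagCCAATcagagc
Hmgb3: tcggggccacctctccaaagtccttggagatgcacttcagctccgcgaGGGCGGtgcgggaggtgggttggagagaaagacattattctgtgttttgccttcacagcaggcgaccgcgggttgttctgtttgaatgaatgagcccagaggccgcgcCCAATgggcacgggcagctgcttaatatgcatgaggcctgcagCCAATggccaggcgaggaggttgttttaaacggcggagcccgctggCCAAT
Hmgn1: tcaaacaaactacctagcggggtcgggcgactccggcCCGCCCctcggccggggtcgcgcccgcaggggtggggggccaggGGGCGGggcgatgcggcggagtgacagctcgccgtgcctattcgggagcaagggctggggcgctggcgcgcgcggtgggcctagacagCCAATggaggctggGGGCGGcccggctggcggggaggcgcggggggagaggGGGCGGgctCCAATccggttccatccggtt
Hmgn2: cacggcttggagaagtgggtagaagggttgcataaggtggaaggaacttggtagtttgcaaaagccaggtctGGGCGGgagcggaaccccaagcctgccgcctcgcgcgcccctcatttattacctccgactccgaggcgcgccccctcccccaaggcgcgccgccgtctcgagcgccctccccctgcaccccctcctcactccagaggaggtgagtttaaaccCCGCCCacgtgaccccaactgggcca

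The 3 HMGB windows hold 3, 4 and 3 CCAAT sites, all on the gene's own strand. In the Hmgb1 window the site nearest the start ends 7 bases before it, as it does in the Hmgb2 window, and in the Hmgb3 window it ends 1 base before it. The Hmgn1 window holds 2 CCAAT sites and 4 GC boxes. The Hmgn2 window holds 2 GC boxes, the Hmga1 window 3 and the Hmga2 window 1, and none of these has a CCAAT. Of 7 HMG genes matched in the RefSeq table (all but Hmgn3), 4 thus carry CCAAT, against 33.8% of 32851 promoter windows of this length. The Hmgb2 and Hmgb3 windows hold 1 GC box each and the Hmgb1 window none, so that 6 of the 7 carry it, against 32.7% of all windows. The motif TTTNGCGC, a form of E2F site, was found in none of the 7 and in 1.13% of all windows. The motifs were chosen after the values were seen, and these letters are a description of the windows and not of binding. The windows and distances hold for the RefSeq starts only. By the GENCODE spans given above, the Hmgb1 and Hmgn2 windows lie inside their genes.

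The libraries held 9782166 to 16280811 reads over 18254 to 20358 genes above 0. The values are signal, which is reads of a gene multiplied by a library factor of its own, and 1 read was worth 0.0621 to 0.104 of signal. Signal is not divided by length. LSK and LK libraries were scaled apart. The knocked-out gene Ripk3 had a signal of 162.4 and 167.9 in WT LSK and of 3.376 and 1.076 in Ripk3-KO LSK. In LK cells it was 144.2 and 149.7 in WT and 16.17 and 10.62 in Ripk3-KO, so that the knockout libraries were low in both populations and lower in LSK. The Sca1 gene Ly6a ran from 141 to 237 in LSK libraries and from 0.124 to 4.12 in LK libraries, as the sort requires. Xist was 108 to 413 in the 4 WT libraries and at most 1.27 in the 4 Ripk3-KO libraries, while 4 Y-linked genes summed to 0 in WT and to 65.1 to 135 in Ripk3-KO. The genotypes and the sexes of the mice therefore cannot be told apart in any comparison below, including that of the X-linked gene Hmgb3. Summed signal of 8 maturing-neutrophil markers was 704 to 769 in WT LSK and 2340 to 2770 in Ripk3-KO LSK, with 8 of 8 markers higher and none at 0, and 774 to 781 in WT LK and 1680 in both Ripk3-KO LK libraries, with 7 of 8 higher. Summed signal of 8 LK myeloid progenitor markers was 7850 to 8830 in WT LSK and 5640 to 7210 in Ripk3-KO LSK, with 5 of 8 lower, none higher and none at 0, and 65300 to 74200 in WT LK and 50900 to 66500 in Ripk3-KO LK, with 6 of 8 lower. Summed signal of 10 LSK markers was 2060 to 2090 in WT LSK and 2890 to 2920 in Ripk3-KO LSK, with 5 of 10 higher and none lower. In LK cells it was 700 to 703 in WT and 812 to 902 in Ripk3-KO, also with 5 of 10 higher and none lower. The part of these marker differences in the HMG values was not tested. In bulk samples, fewer cells of a type and less RNA per cell cannot be told apart.

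In LSK cells, 6 of the 8 HMG genes were lower in both Ripk3-KO libraries than in both WT libraries, as were 23.2% of the 16817 genes tested. Hmgb1 was 3.48-fold lower, Hmgb3 2.17-fold, Hmgb2 2.05-fold, Hmgn2 1.94-fold, Hmga2 1.62-fold and Hmgn1 1.48-fold. Hmgn3 overlapped between genotypes, and Hmga1, close to the limit of counting, was higher. In LK cells the fitted differences of the HMGB and HMGN genes lay between -0.31 and -0.01 on the log2 scale. The neutrophil markers were higher and the LK myeloid progenitor markers lower in the same Ripk3-KO LSK libraries, as given above.

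**Figure D1:**
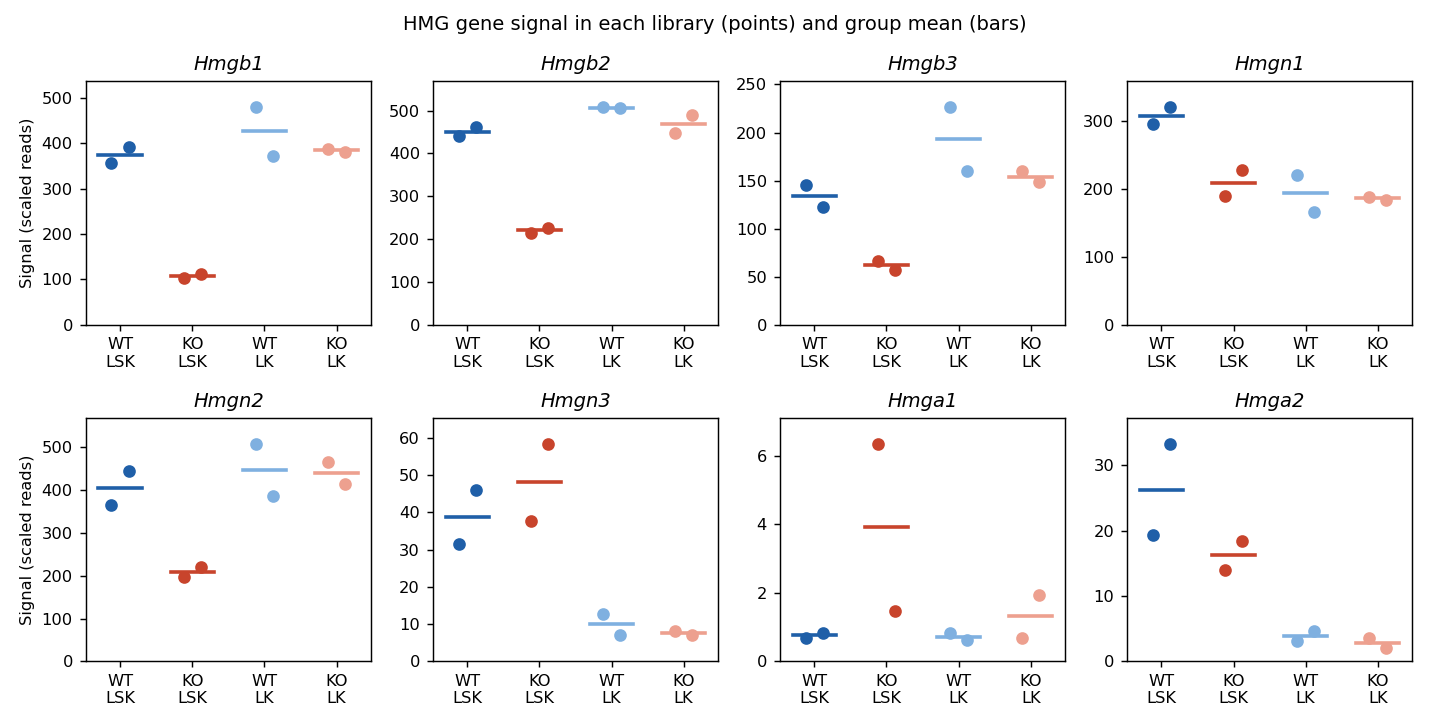
Signal (scaled reads, vertical axis from 0) of each HMG gene in the 8 libraries, with points for libraries and a bar for the mean of each group of 2. The 2 Ripk3-KO LSK points of Hmgb1, Hmgb2, Hmgb3, Hmgn1 and Hmgn2 lie below both WT LSK points, and Hmgn3 and Hmga2 stand higher in LSK than in LK.

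Hmgb1, the HMG-box protein that doubles as an alarmin, had a signal of 356.1 and 390.8 in WT LSK and of 103.1 and 111.6 in Ripk3-KO LSK. The groups were far apart relative to their replicates, with means of 373 ± 24.5 and 107 ± 5.98 (SD, n = 2 each) and a log2 fold change of -1.79 (SE 0.17), on the log2(signal + 1) scale as are all fold changes with an SE here. In LK cells Hmgb1 was 479.3 and 372.4 in WT and 387.3 and 381.1 in Ripk3-KO. Both Ripk3-KO values lay between the WT values there, and the log2 fold change was -0.14 (SE 0.18). The LSK change minus the LK change was -1.65 (SE 0.25). Of all genes tested in LSK, 2.11% had a lower fold change than Hmgb1.

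Hmgb2, the HMG-box protein best known from dividing and erythroid cells, was 441.3 and 460.6 in WT LSK and 215.1 and 225.5 in Ripk3-KO LSK. The replicates of each genotype differed by at most 1.05-fold, and the means of 451 ± 13.6 and 220 ± 7.36 (SD, n = 2 each) gave a log2 fold change of -1.03 (SE 0.16). In LK cells Hmgb2 was 507.9 and 505.9 in WT and 447.4 and 488.5 in Ripk3-KO. The Ripk3-KO values were lower there as well, but by 1.08-fold in the mean, with a log2 fold change of -0.12 (SE 0.16) that turned to 0.02 with quantile normalization. Hmgb3, the X-linked HMG-box member expressed in blood stem cells, was 145.3 and 122.9 in WT LSK and 66.56 and 57.01 in Ripk3-KO LSK. Its log2 fold change of -1.10 (SE 0.22) was close to that of Hmgb2. In LK cells Hmgb3 was 226.4 and 160.4 in WT and 160.0 and 148.2 in Ripk3-KO, so that the groups did not overlap but the lower WT library lay next to the Ripk3-KO values, and the log2 fold change was -0.31 (SE 0.22).

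Hmgn2, a nucleosome-binding protein, was 365.8 and 443.2 in WT LSK and 197.7 and 219.6 in Ripk3-KO LSK. The means of 405 ± 54.7 and 209 ± 15.5 (SD, n = 2 each) gave a log2 fold change of -0.95 (SE 0.18). In LK cells Hmgn2 was 507.7 and 385.4 in WT and 465.8 and 413.6 in Ripk3-KO, with both Ripk3-KO values inside the WT range and a log2 fold change of -0.01 (SE 0.18). Hmgn1, its close relative, was 295.1 and 319.9 in WT LSK and 189.5 and 226.9 in Ripk3-KO LSK. It showed the smallest of the 5 differences of the high-signal HMG genes, at -0.57 (SE 0.19) on the log2 scale. In LK cells Hmgn1 was 220.3 and 165.6 in WT and 188.5 and 183.4 in Ripk3-KO, again inside the WT range. Hmgn3, the HMGN member with a more restricted expression, was 31.4 and 46.0 in WT LSK and 37.7 and 58.4 in Ripk3-KO LSK. Its groups overlapped, and the fold change of 0.30 (SE 0.41) turned to -0.01 without Ripk3-KO LSK replicate 2. In LK cells Hmgn3 was 12.7 and 7.17 in WT and 8.05 and 7.08 in Ripk3-KO.

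Hmga2, the AT-hook protein of fetal and stem cells, was 19.27 and 33.25 in WT LSK and 13.99 and 18.39 in Ripk3-KO LSK. The groups did not overlap, but the gap between the lower WT and the higher Ripk3-KO library was small beside the 1.73-fold gap between the WT replicates, and the log2 fold change was -0.63 (SE 0.52). It was -0.25 without WT LSK replicate 2 and -1.01 without WT LSK replicate 1. In LK cells Hmga2 was 3.19 and 4.58 in WT and 3.61 and 1.99 in Ripk3-KO, which overlap. Hmga1, the AT-hook protein usually abundant in progenitors, was listed at 0.695 and 0.829 in WT LSK, from 7 and 8 reads, and at 6.35 and 1.47 in Ripk3-KO LSK, from 79 and 15 reads. These few reads gave a log2 fold change of 1.27 (SE 0.65), with the Ripk3-KO replicates 4.33-fold apart. Hmga1 was 0.815 and 0.611 in WT LK and 0.698 and 1.92 in Ripk3-KO LK. Cenpa, a centromere histone of every dividing cell, was listed at 0 in all 8 libraries, and the histone gene H2afz at 0 to 1.49, both named after their values were seen. A low value of Hmga1 is therefore given only as listed.

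**Figure D2:**
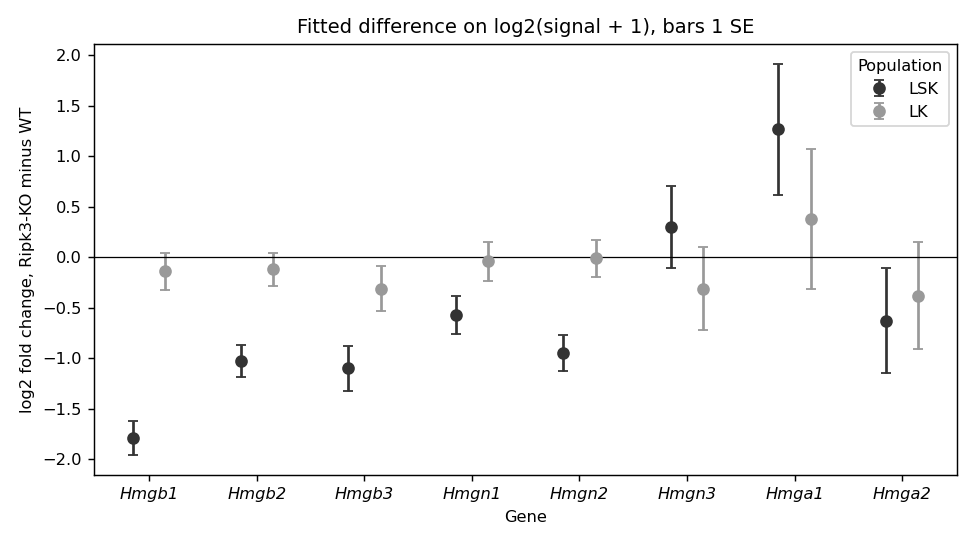
Fitted log2 fold change (Ripk3-KO minus WT, vertical axis) of each HMG gene in LSK and LK cells, with bars of 1 SE. Hmgb1 stands lowest in LSK at -1.79, Hmgb2, Hmgb3 and Hmgn2 lie between -1.10 and -0.95, and the LK values of the HMGB and HMGN genes lie between -0.31 and -0.01.

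Counted over the family, 6 of 8 HMG genes were lower without overlap in Ripk3-KO LSK, where 23.2% of genes tested were, and 1 was higher, where 21.4% were. A log2 fold change of -1 or lower was found for 3 HMG genes (Hmgb1, Hmgb2 and Hmgb3) and for 12.2% of all genes. The median log2 fold change was -0.79 over the 8 genes and -0.0086 over all genes. In LK cells 2 of 8 were lower without overlap (19.9% of 13949 genes) and 0 were higher (20.1%), with a median of -0.13 against 0.0093. The LSK values chose this family, so nothing is read from these shares. Leaving out a library cannot make groups that are apart overlap, so counts with a library left out test nothing and are not given.

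The share of all reads that the 8 genes held needs no scaling factor. It was 0.170% (95% exact binomial interval 0.168% to 0.173%) and 0.179% (0.176% to 0.181%) in WT LSK, and 0.0816% (0.0800% to 0.0832%) and 0.0924% (0.0906% to 0.0943%) in Ripk3-KO LSK. In LK cells it was 0.184% and 0.160% in WT and 0.179% and 0.161% in Ripk3-KO. The share in Ripk3-KO LSK thus stood apart from the other 6 libraries, which lay between 0.160% and 0.184%. The intervals cover counting error only, and PCR copies are not independent molecules.

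Ratios of reads between family members in the same library differed between genotypes for some pairs and not for others. Hmgb1 to Hmgb2 was 0.807 and 0.848 in WT LSK and 0.479 and 0.495 in Ripk3-KO LSK, and 0.736 to 0.944 in the 4 LK libraries. The Ripk3-KO LSK libraries were lowest in Hmgb1 relative to Hmgb2, while Hmgb3 to Hmgb2 was 0.329 and 0.267 in WT LSK and 0.309 and 0.253 in Ripk3-KO LSK, which overlap. Hmgn1 to Hmgn2 was 0.807 and 0.722 in WT LSK and 0.958 and 1.03 in Ripk3-KO LSK. In LK cells that ratio was 0.405 to 0.443 in all 4 libraries, below every LSK library, so that Hmgn1 was the more LSK-weighted of the HMGN pair in both genotypes. Hmgb1 to Hmgn2 was 0.973 and 0.882 in WT LSK, 0.522 and 0.508 in Ripk3-KO LSK and 0.831 to 0.966 in LK.

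**Figure D3:**
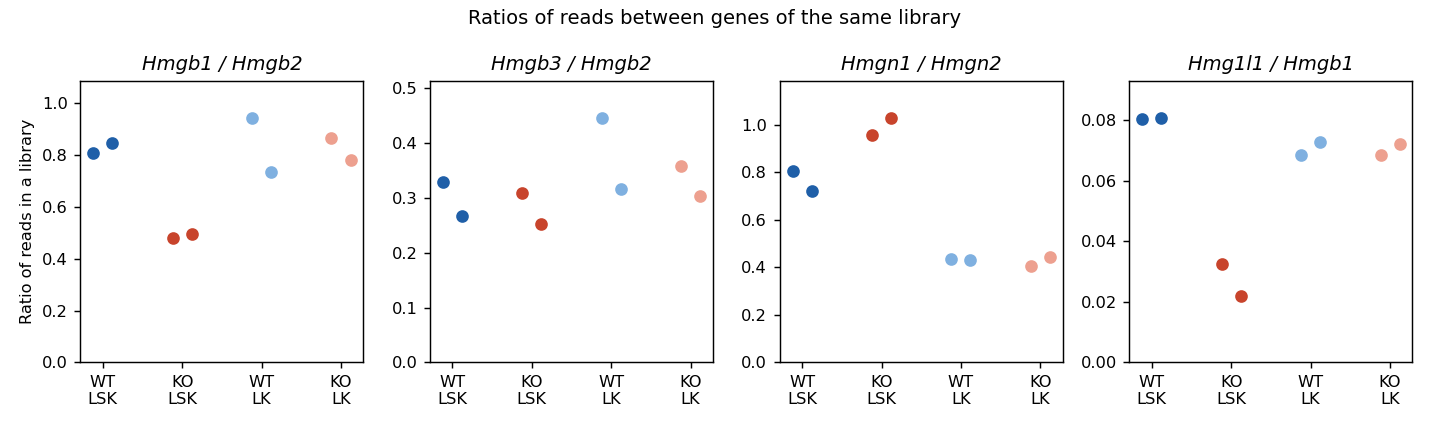
Ratio of reads between 2 genes of the same library (vertical axes from 0, no unit), 1 point for each of the 2 libraries of a group. Hmgb1 to Hmgb2 and Hmg1l1 to Hmgb1 are lowest in the Ripk3-KO LSK libraries, Hmgb3 to Hmgb2 overlaps between genotypes, and Hmgn1 to Hmgn2 separates LSK from LK.

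Most HMG genes have near-identical copies elsewhere in the genome, with which reads can be shared. By alignment of transcripts (at least 90% identity over at least 200 bases, against 13607 pseudogene transcripts), Hmgb1 had 121 such copies, Hmgn2 23, Hmgb3 14, Hmgb2 10, Hmgn1 4, Hmga2 1 and Hmgn3 0. In LSK the gene with the most copies had the lowest fold change, the 3 with 10 to 23 copies lay between -1.10 and -0.95, and Hmgn1 with 4 copies lay at -0.57. The order was not strict, since Hmga2 with 1 copy lay at -0.63, below Hmgn1, and Hmgn2 with 23 copies at -0.95, above Hmgb2 with 10 at -1.03. Hmgn3, with no copy, was the only HMG gene of more than 10 signal in LSK that was not lower in Ripk3-KO. In LK cells no such order was seen, with -0.14 for Hmgb1 and -0.31 for Hmgn3.

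**Figure D4:**
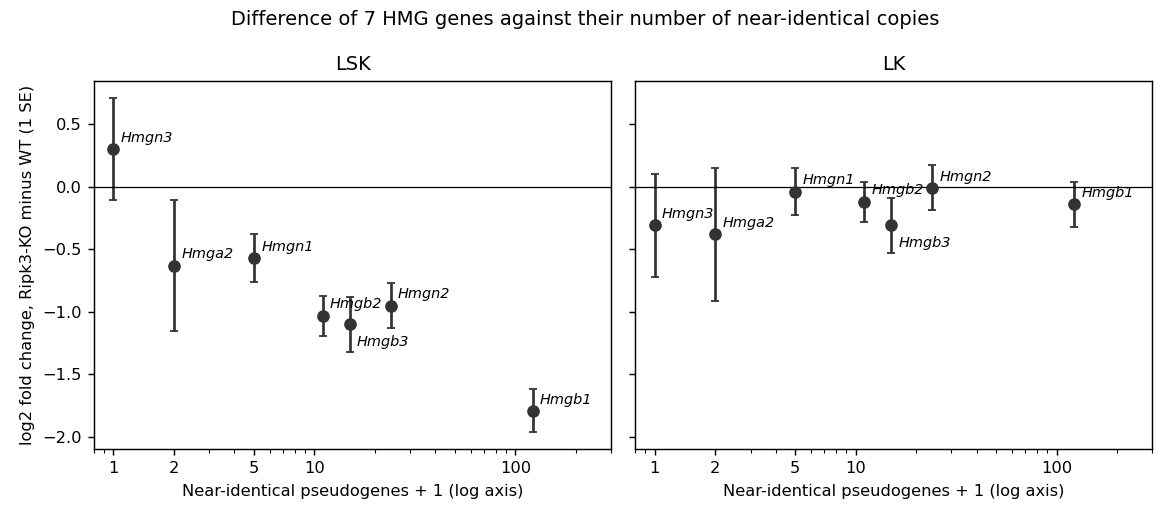
Fitted log2 fold change (Ripk3-KO minus WT, bars of 1 SE) of 7 HMG genes (Hmga1 is not shown) against their number of near-identical pseudogenes plus 1 (log axis), in LSK and in LK. In LSK the values run from 0.30 for Hmgn3 with 0 copies to -1.79 for Hmgb1 with 121, and in LK those of the same genes are -0.31 and -0.14.

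Copy-rich genes outside the family had lower medians in LSK as well, but those for 5 to 9 copies and for 10 or more were alike. In LSK the median log2 fold change of protein-coding genes was 0.02 for 12915 genes with 0 copies, -0.08 for 1571 genes with 1 to 4, -0.59 for 98 genes with 5 to 9 and -0.60 for 89 genes with 10 or more. The share lower without overlap in Ripk3-KO LSK was 21.4%, 30.3%, 63.3% and 62.9% in that order. The share with a log2 fold change of -1 or lower was 11.9%, 7.13%, 14.3% and 21.3%, which did not rise at each step. In LK the medians were 0.02, -0.06, -0.05 and -0.09, so that the copy-rich genes stood apart in LSK and little in LK. Without ribosomal protein genes, which make up 59 of those with 5 or more copies, the other 128 genes had a median of -0.60 in LSK, and 117 had -0.08 in LK. This comparison was chosen after the values were seen and has no test. How reads that match several places were counted is not given in the sources used here, and the part of shared reads in the HMG values was not tested.

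Of the copies of Hmgb1 only Hmg1l1, a Hmgb1 pseudogene, had a row. Whether the reads counted there came from Hmg1l1 or from Hmgb1 was not tested. The Hmg1l1 row was 28.7 and 31.6 in WT LSK and 3.38 and 2.44 in Ripk3-KO LSK. Its mean was 10.4-fold lower, with a log2 fold change of -3.00 (SE 0.39). The difference was larger than that of Hmgb1 itself, and the ratio of its reads to those of Hmgb1 was 0.0806 and 0.0809 in WT LSK, 0.0327 and 0.0219 in Ripk3-KO LSK and 0.0686 to 0.0728 in the 4 LK libraries. With the reads of Hmg1l1 added to those of Hmgb1 the log2 fold change of Hmgb1 in LSK was -1.86. The copy of Hmgn2 with a row, Gm6985, held at most 2 reads in any library. Low values in Ripk3-KO LSK were not limited to the Hmg1l1 row. Of 50 processed pseudogene rows tested in LSK, 48% were lower without overlap and 36% had a log2 fold change of -1 or lower (median -0.45). Of 35 such rows in LK, 31.4% were lower without overlap and 0% reached -1 (median -0.14).

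The genes whose signal moved most like that of Hmgb1 over the 8 libraries, after removal of each population's mean, were Golga7 (Pearson r = 0.994), Cycs (0.992), Erh (0.992), Hmg1l1 (0.988) and Gm16378 (0.988), among 8252 genes ranked. For Hmgb2 they were Rpl21 (0.995), Gm16378 (0.992), Rpl29 (0.991), 1190002H23Rik (0.991) and Nhp2l1 (0.991). Cytochrome c (Cycs) has 9 near-identical copies, the ribosomal protein genes Rpl21 and Rpl29 have 82 and 70, the snRNP gene Nhp2l1 has 9, and Gm16378 is itself a processed pseudogene. Golga7 and Erh have 2 and 3, and 1190002H23Rik has 0. Rpl21 was 247 and 292 in WT LSK and 47.3 and 46.7 in Ripk3-KO LSK, with 170 to 204 in LK, so that it was lowest in the libraries in which Hmgb1 was. These correlations are over 8 libraries in which the 2 Ripk3-KO LSK libraries stand apart. Among the family, r was 0.985 between Hmgb1 and Hmgb2, 0.970 between Hmgb1 and Hmgn2, 0.963 between Hmgn1 and Hmgn2, and -0.172 between Hmgb1 and Hmgn3.

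LSK and LK levels were set side by side after the recovered reads of all 8 libraries were scaled together. Hmga2 and Hmgn3 were higher in all 4 LSK than in all 4 LK libraries, where 11.3% of 15757 genes were. Hmga2 averaged 23 ± 8.68 in WT LSK and 4.40 ± 1.08 in WT LK (SD, n = 2 each), 5.23-fold higher in LSK, and Hmgn3 averaged 34.0 ± 9.07 and 11.3 ± 4.52, 3.01-fold higher. Hmgb1, Hmgb2, Hmgb3 and Hmgn2 were lower in all 4 LSK libraries, where 16.7% of genes were, and Hmgn1 and Hmga1 overlapped. In WT cells Hmgb1 averaged 328 ± 21.5 in LSK and 483 ± 89.2 in LK, Hmgb2 396 ± 12 and 575 ± 5.79, Hmgb3 118 ± 13.9 and 220 ± 54.6, and Hmgn2 355 ± 48.0 and 507 ± 102 (SD, n = 2 each). LK stood 1.43-fold to 1.87-fold above LSK for these 4 genes in WT, and 2.73-fold to 4.64-fold above it in Ripk3-KO, with the largest ratio for Hmgb1.

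Divided by transcript length, the order within WT LSK was Hmgn2 at 289 and 350 of signal per kb, Hmgb2 at 168 and 175, then Hmgn1 at 136 and 147 and Hmgb1 at 125 and 138, which overlap each other. Hmgb3 followed at 83.4 and 70.5, Hmgn3 at 31.9 and 46.8 and Hmga2 at 5.19 and 8.96, and Hmga1 was lowest at 0.347 and 0.414. In Ripk3-KO LSK Hmgb1, at 36.3 and 39.3 of signal per kb, overlapped Hmgb3 at 38.2 and 32.7 and Hmgn3 at 38.4 and 59.4. In WT LK the order was Hmgn2 (401 and 305), Hmgb2 (193 and 193), Hmgb1 (169 and 131), Hmgb3 (130 and 92.0) and Hmgn1 (101 and 76.2), of which Hmgb3 overlaps Hmgn1 and lies just below Hmgb1. Lengths are of GENCODE transcripts, and those used by the cells were not measured.

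Genes that work with HMG proteins were taken from 9 lists of 108 genes, none of them a member, of which 104 had a row. These were tested by limma over all genes with Benjamini-Hochberg adjustment. In LSK 6 of 96 tested were lower and 4 higher in Ripk3-KO at an adjusted p under 0.05, against 1.27% and 0.892% of all genes, and in LK 0 of 92 were lower and 1 higher, against 0.373% and 0.1%. edgeR on the recovered reads called 9 in LSK and 1 in LK. The lists were written with earlier results known, and are described by their counts and medians.

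Linker histones and the other HMG-box and HMGN genes listed were not called in either population. None of 7 linker histones, the H1 proteins that HMGN proteins compete with, was called in LSK by limma or edgeR (1 at an unadjusted p under 0.05), and their median log2 fold change was -0.11. In LK cells none of 6 was called by either tool (1 at an unadjusted p under 0.05), with a median of 0.12. Of the list of other HMG-box proteins and their partners 19 were tested in LSK. None was called by limma or edgeR (3 at an unadjusted p under 0.05), with a median of 0.36. In LK none of 17 was called by either tool (2 at an unadjusted p under 0.05), with a median of 0.07. The only other HMGN gene tested, Hmgn5, gave -0.21 in LSK and -0.26 in LK and was called by neither tool (0 at an unadjusted p under 0.05). Sox4, an HMG-box transcription factor, was 54.4 and 55.6 in WT LSK and 123 and 108 in Ripk3-KO LSK, but 78.7 and 27.9 in WT LK and 12 and 22 in Ripk3-KO LK. The LSK change minus the LK change of Sox4 was 2.53 (SE 0.52, limma adjusted p = 0.0282), in a test that called 0.176% of 15901 genes lower and 0.182% higher. That call was lost under 9 of 17 alternatives, among them edgeR (adjusted p = 0.0562) and the fit without WT LK replicate 1 (1.80, adjusted p = 0.368).

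Of the receptors and partners of extracellular Hmgb1, 2 of 10 tested in LSK were lower by limma and 1 was called by edgeR, and the list's median was -0.01. In LK none of 10 was called by either tool (1 at an unadjusted p under 0.05), with a median of 0.39. Cd14, a co-receptor of Toll-like receptors, was 19.8 and 13.8 in WT LSK and 3.13 and 3.62 in Ripk3-KO LSK (log2 fold change -2.00, SE 0.39, limma adjusted p = 0.00636), and it was 69.3 and 61.1 in WT LK and 26.4 and 24.9 in Ripk3-KO LK (limma adjusted p = 0.243). Tlr2, a Toll-like receptor, was 30.4 and 24.9 in WT LSK and 4.90 and 12 in Ripk3-KO LSK (log2 fold change -1.70, SE 0.42, limma adjusted p = 0.0395). Tlr4 was 9.83 and 0 in WT LSK and 13.8 and 2.64 in Ripk3-KO LSK, which overlap (limma adjusted p = 0.495). Ager was at most 0.807 in any library and was not tested. The Cd14 call was lost without WT LSK replicate 1 (adjusted p = 0.0718) and without Ripk3-KO LSK replicate 1 (0.0509), and with a separate fit of each population (0.134). The Tlr2 call was lost under 12 of 18 alternatives, among them edgeR (0.0842), the replicate block (0.0547) and the fits without any 1 of 7 libraries, up to 0.207 and a fold change of -1.13 without Ripk3-KO LSK replicate 1. None of 10 genes for proteins that modify or export Hmgb1 was called in either population by limma or edgeR (3 and 1 at an unadjusted p under 0.05 in LSK and LK). Their median was 0.24 in LSK and 0.04 in LK.

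Of other alarmins 11 were tested in LSK, of which 2 were higher and none was lower (5 at an unadjusted p under 0.05, and 2 called by edgeR), and the median was -0.04. S100a8, which with S100a9 forms calprotectin, was 231 and 273 in WT LSK and 624 and 869 in Ripk3-KO LSK (log2 fold change 1.55, SE 0.17, limma adjusted p = 1.2e-05). S100a9 was 156 and 193 in WT LSK and 420 and 532 in Ripk3-KO LSK (1.44, SE 0.19, limma adjusted p = 7.91e-05). Both Ripk3-KO libraries stood above both WT libraries for each. In LK cells S100a9 was 130 and 124 in WT and 271 and 256 in Ripk3-KO (1.04, SE 0.18, limma adjusted p = 0.00613), and S100a8 was 433 and 446 in WT and 566 and 528 in Ripk3-KO (limma adjusted p = 0.82). The LSK change of S100a8 exceeded its LK change by 1.23 (SE 0.24, limma adjusted p = 0.0216), a call that was lost under 8 of 17 alternatives, up to an adjusted p of 0.325 without a filter. Both genes are also among the 8 maturing-neutrophil markers given above, and the part of such cells was not tested. The LSK calls of both held under each of 18 alternatives, while the LK call of S100a9 was lost without Ripk3-KO LK replicate 1 (adjusted p = 0.193), Ripk3-KO LK replicate 2 (0.0581) or WT LK replicate 1 (0.115).

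The SET complex holds Hmgb2 together with the nuclear protein Set and the repair enzyme Apex1, and of 9 genes of that list tested in LSK these 2 were called, in opposite directions (list median 0.12). Set was 246 and 249 in WT LSK and 122 and 116 in Ripk3-KO LSK (log2 fold change -1.05, SE 0.18, limma adjusted p = 0.0019), values much like those of Hmgb2 in size of change. Apex1 was 21.1 and 24.2 in WT LSK and 67.3 and 61.9 in Ripk3-KO LSK (1.47, SE 0.32, limma adjusted p = 0.0145). In LK cells none of 10 genes of the list was called by limma or edgeR (1 at an unadjusted p under 0.05, median -0.14), these 2 included (limma adjusted p = 0.92 for Set and 0.983 for Apex1). Set has 12 near-identical copies and Apex1 has 0. The Set call was lost without WT LSK replicate 2 (adjusted p = 0.0506), and that of Apex1 without any 1 LSK library (0.0655 to 0.105).

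Proliferation genes were followed because Hmgb2 rises in dividing cells. Of 23 tested in LSK 3 were lower and 1 higher, with a median of -0.12, and in LK none of 23 was called by limma or edgeR (1 at an unadjusted p under 0.05), with a median of -0.06. Mki67, the proliferation antigen, was 183 and 179 in WT LSK and 156 and 198 in Ripk3-KO LSK, which overlap (log2 fold change -0.04, limma adjusted p = 0.933). Top2a, the topoisomerase of dividing cells, was 186 and 179 in WT LSK and 281 and 330 in Ripk3-KO LSK (0.73, SE 0.17, limma adjusted p = 0.0235). Stmn1, a tubulin-binding protein, was 1290 and 1500 in WT LSK and 540 and 475 in Ripk3-KO LSK (-1.45, SE 0.15, limma adjusted p = 3.44e-06), and its LSK change was lower than its LK change by 1.18 (interaction -1.18, SE 0.21, limma adjusted p = 0.00902), a call that was lost under 5 of 17 alternatives, up to an adjusted p of 0.286 without a filter. Tuba1b, an alpha tubulin, was 671 and 689 in WT LSK and 389 and 297 in Ripk3-KO LSK (-1, SE 0.17, limma adjusted p = 0.00207). Ccnb1, the mitotic cyclin, was 142 and 128 in WT LSK and 84.1 and 69.0 in Ripk3-KO LSK (-0.82, SE 0.20, limma adjusted p = 0.0313). The list thus held genes in both directions. Tuba1b has 12 near-identical copies, Ccnb1 5, Stmn1 1 and Top2a 0. The LSK call of Stmn1 held under each of 18 alternatives, that of Tuba1b was lost without WT LSK replicate 1 (adjusted p = 0.0511), WT LSK replicate 2 (0.0749) or Ripk3-KO LSK replicate 2 (0.0727), and those of Top2a and Ccnb1 were each lost under 9 of 18, up to 0.165 and 0.175, both without Ripk3-KO LSK replicate 2.

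Of the genes listed around the Lin28, let-7 and Hmga2 axis, none of 6 tested was called by limma or edgeR in either population. None had an unadjusted p under 0.05 in either, and the median was 0.02 in LSK and 0.52 in LK. The let-7 entry of the list, Mirlet7bhg, had no row, so no let-7 gene was tested. Lin28b, the RNA-binding protein that blocks let-7 maturation, was 8.14 and 5.49 in WT LSK and 6.19 and 17.9 in Ripk3-KO LSK, which overlap (log2 fold change 0.60, SE 0.71, limma adjusted p = 0.699). In LK cells Lin28b was 0.34 and 4.2 in WT and 0.888 and 3.04 in Ripk3-KO. The highest signals of Lin28b were in LSK libraries, but LSK and LK were scaled apart. Unlike Hmga2 and Hmgn3, Lin28b was not set on the joint scale.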

How the data were processed

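RNA-seq of sorted LSK and LK cells from WT and Ripk3-KO mice was measured in 8 libraries, 2 per group, from a stranded mRNA kit, and per the submitters' processing notes TopHat and mm9 were used (versions, the annotation and the handling of reads with several matches are not given in the sources used here). The signal values that the authors deposited, headed FPKM, are not divided by gene length. In every library 100% of them were whole reads within 0.01 read times a library factor, and the factors equaled TMM factors of edgeR (version 4.0.16) computed for LSK and for LK libraries separately. Tests were designed for FPKM and were kept for signal. limma (version 3.58.1, R 4.3.3) was fitted to log2(signal + 1) with 4 group means over 8 libraries, on genes whose signal averaged 1 or more over the libraries of a contrast, and p-values were two-sided and adjusted by Benjamini-Hochberg over all genes tested. With 2 libraries against 2, an exact permutation test cannot give less than 0.333, so none was used.

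The HMG genes and all lists were chosen with earlier results of these data known, and no p is given for an HMG gene. Named genes are the 8 HMG genes, genes of the related lists with an adjusted p under 0.05 in LSK, LK or the difference of the 2 contrasts, Ager, Tlr4, Lin28b, Mki67 and Top2a, the 5 genes most like Hmgb1 and Hmgb2 each (mean of at least 10), and Ripk3. Names were matched to GENCODE M21 on GRCm38, and copies were found with BLAST 2.17.0. The joint scale used TMM over all 8 libraries. Alternatives fixed earlier were quantile normalization, median centring, another pseudocount (0.1), leaving out the filter or raising it to 5, edgeR's quasi-likelihood test on recovered reads, separate fits, a replicate block, the ratio of means and leaving out each library. The length and GC trend, joint scaling, the addition of Hmg1l1 and the grouping by copies were added after the data were seen. Rows were joined between populations by exact name. The scripts were tested on simulated data. Copies of Hmga1 are not reported here. At these depths 3 reads correspond to a signal of 0.186 to 0.311. Markers of B, T, late erythroid, megakaryocyte, macrophage and stromal cells had summed signals of 66.7 to 98.1, 82.7 to 109, 27.9 to 38.8, 105 to 126, 54.2 to 65.8 and 18.5 to 19.9 in Ripk3-KO LSK, against 79.1 to 92.2, 78.7 to 94.9, 17.1 to 28.8, 107 to 187, 55.3 to 73.3 and 28.3 to 34.3 in WT LSK.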

Additional observations from a re-analysis of the deposited data

Results flagged for a closer look

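Among the genes related to the HMG family, 3 showed a genotype difference in LSK that differed from that in LK by the limma test of the difference itself. For Sox4 the LSK change minus the LK change was 2.53 on the log2 scale, for S100a8 it was 1.23, and for Stmn1 it was -1.18. The Sox4 call was lost without any 1 of 6 libraries (all but WT LK replicate 2 and Ripk3-KO LK replicate 2, adjusted p 0.117 to 0.368 by limma). The S100a8 call was lost without any 1 library other than Ripk3-KO LSK replicate 1 (0.052 to 0.163), and the Stmn1 call without WT LSK replicate 2 (0.119), Ripk3-KO LSK replicate 2 (0.064), Ripk3-KO LK replicate 1 (0.0547) or Ripk3-KO LK replicate 2 (0.0556). All 3 calls were also lost without a filter (0.375 for Sox4, 0.325 for S100a8 and 0.286 for Stmn1), and that of Sox4 with a pseudocount of 0.1 (0.0603) and with edgeR (0.0562).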

How the results depend on the processing

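With 363 genes called in LSK, 66 in LK and 57 for the difference (unadjusted p under 0.05 in 3011, 915 and 1613), and 10 and 1 of the related genes in LSK and LK, the counts moved by over 1.5 times under these settings. Without a filter they were 198 in LSK, 9 in LK, 3 for the difference and 0 related genes in LK. edgeR called 237 genes in LSK, 231 of them shared with limma. Separate fits gave 195 and 125 genes, and 6 and 5 related genes, in LSK and LK, and median centring gave 3 related genes in LK. Leaving out each library gave 99 to 262 genes in LSK, 13 to 101 in LK and 17 to 90 for the difference, and 4 to 9 and 0 to 3 related genes in LSK and LK. The lowest LSK count was without WT LSK replicate 2, the lowest LK count without Ripk3-KO LK replicate 1, and the lowest count for the difference without WT LSK replicate 2. The cause was not tested, apart from the fewer samples.

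Replicate numbers did not pair the samples (correlation of deviations -0.011 in LSK and -0.098 in LK), and a replicate block gave 2 related genes in LK and moved no other of these counts by over 1.5 times. Of 112 alternative fold changes of the HMG genes in LSK, 1 changed sign (Hmgn3, -0.01) and 5 moved by over 1 SD, and in LK 10 changed sign. Hmgb1 in LSK ran from -1.94 to -1.72 and Hmgb2 from -1.19 to -1, each lowest with the length and GC trend removed. Hmga1 rests on 7 to 79 reads in LSK, which limits its precision.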
